A study of Homo sapiens with 8 samples.

Results

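The amyloid precursor protein APP, its paralogues APLP1 and APLP2, and 7 genes for the proteases that cut them were examined after a zinc-finger gene, ZNF395, was knocked down. The genes were chosen by name: the APP family (APP, APLP1, APLP2), the beta-secretases (BACE1, BACE2), 3 subunits of gamma-secretase (NCSTN, PSEN2, PSENEN) and the alpha-secretases (ADAM9, ADAM10). These 10 genes had 18 probes among the 47323 on the array. Of the 18, 16 were tested, because their detection p-value was below 0.01 on 4 or more of the 8 arrays, and 17184 probes in all met this condition. Every gene kept at least 1 tested probe. The 2 probes left out, APLP1 ILMN_2396198 and BACE1 ILMN_1797804, were detected on 0 arrays.

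The 2 groups of 4 arrays were compared, labelled shZNF395 and shControl. Both groups were MDA-LM2-shTARBP2 cells, human breast cancer cells of the MDA-LM2 line, which was derived from MDA-MB-231 by selection for lung metastasis. In them a hairpin also targets TARBP2, a double-stranded RNA-binding protein. The shZNF395 cells received lentiviral hairpins against ZNF395. The shControl cells received a control hairpin by the sample labels, whereas the design text calls the comparison cells mock-transfected. All cells were selected for hairpin expression, and total RNA was taken at 48 h. The TARBP2 hairpin was in both groups, so ZNF395 was lowered only on that background. The labels name no separate cultures for the 4 arrays of a group, so the p-values below measure the spread between these arrays, which may be technical. With 4 arrays a group, the number of arrays limits the precision.

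APP is a single-pass membrane protein that is cut by a chain of proteases. Alpha-secretases of the ADAM family cut within the amyloid beta stretch and release a soluble ectodomain, while BACE1 makes the first of the cuts that lead to amyloid beta. Gamma-secretase, built from a presenilin such as PSEN2, nicastrin (NCSTN), PEN-2 (PSENEN) and APH-1, then cuts the remaining stub inside the membrane. APP is best known from neurons and Alzheimer's disease but is made in most cell types, tumour cells included. In MDA-MB-231 lines, TARBP2 is known to destabilise the transcripts of APP and ZNF395, which is the setting of the present knockdown.

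ZNF395 encodes a DNA-binding protein, also called HDBP2, which was first described through a heptamer, GCCGGCG, in the promoter of the huntingtin gene. The 120 bases before a transcript start are shown for APP and BACE1, which had the largest rise and the largest fall among the tested probes, and for APLP1 and PSEN2, whose stretches hold the heptamer. APP has 2 such starts and BACE1 has 3, and 1 of each is shown. The sequences are from RefSeq on GRCh38.p14, and capitals mark GCCGGCG or its reverse complement CGCCGGC.
APP (chr21:26170771-26170890, minus strand): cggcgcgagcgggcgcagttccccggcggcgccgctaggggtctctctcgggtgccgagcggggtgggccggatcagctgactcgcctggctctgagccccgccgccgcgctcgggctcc
APLP1 (chr19:35868454-35868573, plus strand): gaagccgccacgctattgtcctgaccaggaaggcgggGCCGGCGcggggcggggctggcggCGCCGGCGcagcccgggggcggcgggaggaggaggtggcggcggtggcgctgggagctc
PSEN2 (chr1:226870496-226870615, plus strand): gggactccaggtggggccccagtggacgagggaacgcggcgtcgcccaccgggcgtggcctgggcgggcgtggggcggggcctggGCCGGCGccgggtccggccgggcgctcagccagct
BACE1 (chr11:117316257-117316376, minus strand): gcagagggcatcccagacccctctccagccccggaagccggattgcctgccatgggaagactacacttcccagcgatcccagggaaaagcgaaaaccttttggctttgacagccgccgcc

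Of 11 start-site windows of 250 bases available for 8 of the 10 genes, 2 held the heptamer on either strand, that of APLP1 with 3 matches, of which 2 overlap, and that of PSEN2 with 1. Over all 35116 windows in the RefSeq table the share was 8.88%. The windows shown for APP and BACE1 hold none. A match is a description of the letters only, and binding was not measured here.

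The arrays were checked before the genes. ZNF395 had log2 intensities of 9.06, 8.99, 9.22 and 9.06 on the shZNF395 arrays, against 9.89, 9.80, 9.80 and 10.05 on the shControl arrays. The groups did not overlap, and the intensity was lower by 0.80 on the log2 scale (change -0.80, SE 0.0774, adjusted p = 1.01e-05, limma with Benjamini-Hochberg adjustment over all detected probes), so that 57.3% of the control intensity was left. Arrays of 1 group correlated at no less than 0.9931, and arrays of different groups at no more than 0.9745. The arrays numbered 3 stood apart in both groups. Array 3 of shZNF395 had 17191 detected probes, against 16834 to 16882 on the other shZNF395 arrays, and array 3 of shControl had 16476, against 17265 to 17406. They also lay at opposite ends of the component that took 40.3% of the spread within groups, with scores of 0.61 for shZNF395 and -0.52 for shControl. Results that rest on these 2 arrays are therefore given with and without them, a choice made after the values were seen.

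**Figure D1:**
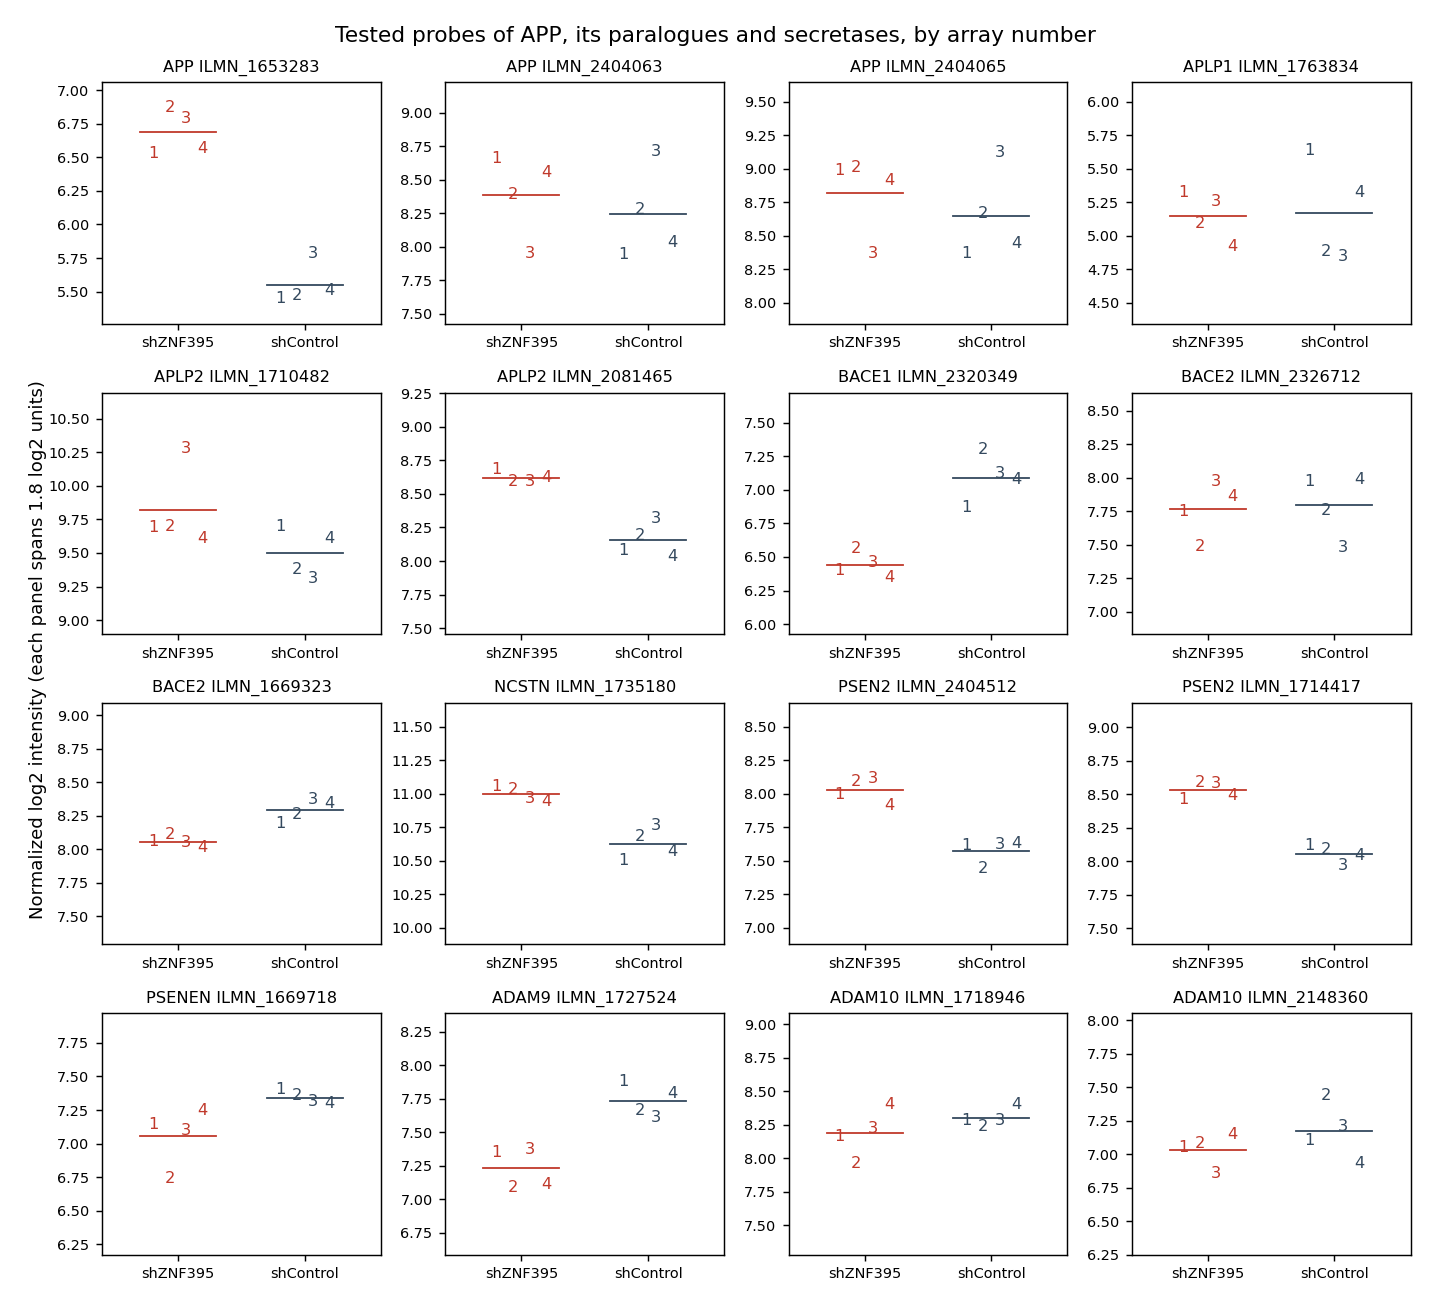
Normalized log2 intensity of the 16 tested probes, with the shZNF395 arrays left of the shControl arrays and each array drawn as its replicate number; lines are group means, and every panel spans 1.8 log2 units. The groups are separate for 9 of the 16 probes, and array 3 of each group lies on the far side of its group for APP ILMN_2404065.

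Across the 10 genes, each read by its brightest tested probe, 2 were higher in shZNF395 (NCSTN and PSEN2), 4 were lower (BACE1, BACE2, PSENEN and ADAM9) and 4 did not pass (APP, APLP1, APLP2 and ADAM10). The background was large: of 9215 genes read in the same way, 29.6% were called higher and 28.4% lower. Of the 16 probes, 5 were higher and 4 lower, where 25.3% of all detected probes were called higher, 30.0% lower and 55.4% in either direction. The groups did not overlap for 9 of the 16 probes, against 49.0% of all detected probes. These shares are close to the background, so the number of changed genes does not set the family apart. The median change of the 16 probes was 0.06, against -0.05 over all detected probes, and the median absolute change was 0.30, against 0.26. Without both arrays numbered 3, 3 of the 10 genes were higher and 3 lower, against 31.1% and 29.1% of all named genes. Of the 16 probes, 7 were then higher and 3 lower, where 26.5% of all detected probes were called higher, 31.6% lower and 58.2% in either direction.

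**Figure D2:**
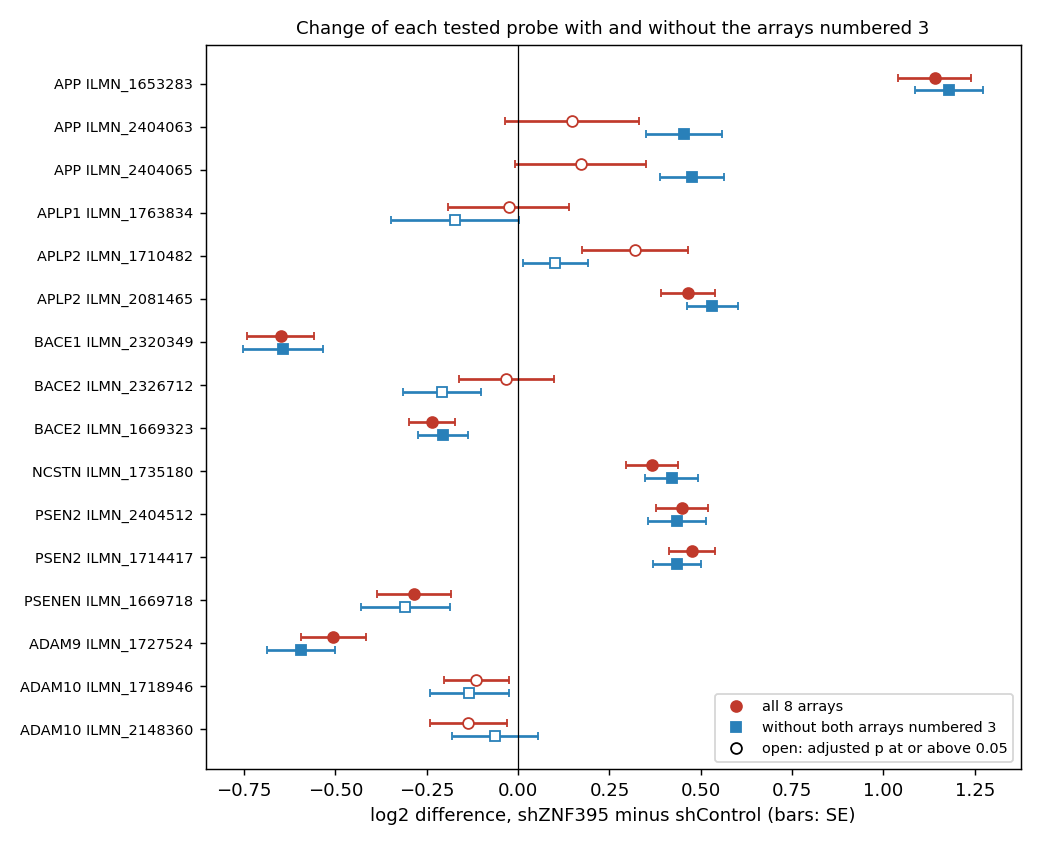
Change of each tested probe in log2 units, shZNF395 minus shControl, with its SE; red circles use all 8 arrays, blue squares leave out both arrays numbered 3, and open symbols have an adjusted p of 0.05 or more. The main APP probe lies farthest right at 1.14, and the other APP probes move from 0.15 and 0.17 to 0.45 and 0.48 when the arrays numbered 3 are left out.

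The 3 APP probes did not give 1 answer. The probe that the choice of genes names as the main one, ILMN_1653283, had log2 intensities of 6.53, 6.87, 6.79 and 6.57 in shZNF395, against 5.45, 5.47, 5.78 and 5.51 in shControl. Every shZNF395 array was above every shControl array. The intensity was 2.20 times that of the control (change 1.14, SE 0.0997, 95% interval 0.92 to 1.36, limma adjusted p = 4.91e-06). Of all detected probes, 2.89% had a larger absolute change. Its signal was near the background, with deposited signals of 126.1, 152.6, 143.1 and 123 in shZNF395, against 77.7, 76, 87.6 and 73.4 in shControl, where the median over all probes of an array was 53.2 to 57.1. Its change moved with the background correction, to 0.76 with an offset of 50 and to 0.67 with that offset and normexp by maximum likelihood, and stayed past the test under all 21 alternatives.

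The other APP probes moved with the arrays. ILMN_2404065, the brightest, had 8.99, 9.01, 8.37 and 8.91 in shZNF395, against 8.37, 8.67, 9.12 and 8.44 in shControl. Array 3 was the lowest of the shZNF395 group and the highest of all shControl arrays, and the groups overlapped. The change was 0.17 (SE 0.178, 95% interval -0.22 to 0.56, adjusted p = 0.44). Without both arrays numbered 3 the groups did not overlap, and the change was 0.48 (SE 0.0877, limma adjusted p = 0.00151). Leaving out these extreme values pulls the groups apart by itself, so that p-value is a description only. The change did not pass without array 3 of shZNF395 alone (0.32, limma adjusted p = 0.111) or array 3 of shControl alone (0.33, limma adjusted p = 0.0866). Nor did it pass with array weights (0.34, limma adjusted p = 0.0559).

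ILMN_2404063, paired with the same transcript entry, had 8.66, 8.39, 7.95 and 8.55 in shZNF395, against 7.94, 8.28, 8.71 and 8.03 in shControl. Here too array 3 was lowest in shZNF395 and highest in shControl. The change was 0.15 (SE 0.183, limma adjusted p = 0.518), and 0.45 (limma adjusted p = 0.00503) without both arrays numbered 3. The latter p-value is a description only, for the same reason. The change did not pass without array 3 of shZNF395 alone (0.30, limma adjusted p = 0.152) or array 3 of shControl alone (0.30, limma adjusted p = 0.125).

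The change of the main APP probe was larger than those of the other 2. The difference in change was 0.97 (SE 0.22) against ILMN_2404065 and 0.99 (SE 0.247) against ILMN_2404063. Both had p = 0.0286 in a two-sided exact permutation test, the smallest that 4 arrays against 4 allow. Neither was adjusted, and the comparison was added after the values were seen, so these p-values are descriptions only. The gap narrowed without both arrays numbered 3, where the main probe changed by 1.18 and the others by 0.48 and 0.45. With normexp by maximum likelihood and an offset of 50, the changes were 0.67 for the main probe and 0.15 and 0.13 for the others. The deposited fold-change table of the authors lists 0.47 for the entry matched to the main probe and 0.12 for the entry matched to the other 2. Its scale is compressed at low signal. These entries were matched to the probes by their values on the same arrays, so they are no separate support for the contrast. The sources used here do not say which APP splice forms each probe reads.

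Within the groups, these 2 APP probes and the brightest APLP2 probe ran in opposite directions over the arrays. Over the 8 arrays, deviations from the group mean had a correlation with the leading component of -0.98 for APP ILMN_2404065, -0.91 for APP ILMN_2404063, 0.92 for APLP2 ILMN_1710482 and 0.91 for BACE2 ILMN_2326712. For the main APP probe it was -0.31. The other probes of APLP2 and BACE2 had the opposite sign, at -0.72 for APLP2 ILMN_2081465 and -0.44 for BACE2 ILMN_1669323. The contrast is therefore one between probes and does not hold for APLP2 or BACE2 as genes. These are descriptions, since all probes share the same 8 arrays and the same normalization. What sets the arrays numbered 3 apart was not tested.

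**Figure D3:**
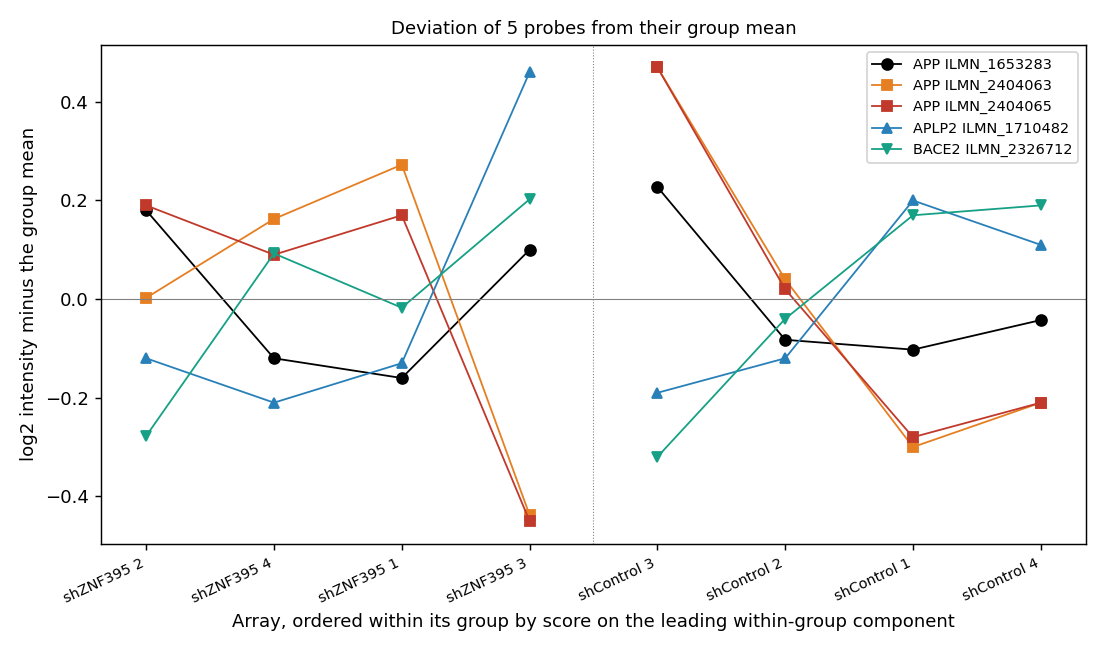
Deviation of 5 probes from their group mean in log2 units, with the arrays of each group ordered by their score on the leading component of the spread within groups, shZNF395 left of shControl. APP ILMN_2404063 and ILMN_2404065 are lowest on array 3 of shZNF395 and highest on array 3 of shControl. APLP2 ILMN_1710482 and BACE2 ILMN_2326712 are highest and lowest on these arrays.

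APLP2, the broadly made paralogue of APP, was read by 2 probes. The first, ILMN_2081465, had 8.68, 8.59, 8.59 and 8.62 in shZNF395, against 8.08, 8.19, 8.32 and 8.03 in shControl. The groups did not overlap, and the change was 0.46 (SE 0.0737, adjusted p = 0.000337, limma), or 1.38 times the control. The second and brightest, ILMN_1710482, had 9.69, 9.70, 10.28 and 9.61 in shZNF395, against 9.70, 9.38, 9.31 and 9.61 in shControl. Array 3 alone stood high among the shZNF395 arrays, and the other 3 lay within the range of the controls. The change of 0.32 (SE 0.144, adjusted p = 0.0823) did not pass, and was 0.10 (adjusted p = 0.349) without both arrays numbered 3. It passed narrowly under median scaling (0.34, adjusted p = 0.0464) and cyclic loess (0.36, adjusted p = 0.0486).

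APLP1, the paralogue found mainly in the nervous system, was close to the detection limit. Its 1 tested probe, ILMN_1763834, was detected on 2 arrays of each group and had 5.32, 5.09, 5.26 and 4.92 in shZNF395, against 5.64, 4.88, 4.85 and 5.32 in shControl. The groups overlapped throughout, and the change of -0.03 (SE 0.166, adjusted p = 0.905) turned to 0.01 under median scaling.

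BACE1, the main beta-secretase in the brain, was lower after knockdown. Probe ILMN_2320349 had 6.40, 6.56, 6.46 and 6.35 in shZNF395, against 6.87, 7.30, 7.12 and 7.08 in shControl. All 4 shZNF395 arrays were below all 4 shControl arrays, and the intensity was 63.7% of that of the control (change -0.65, SE 0.0909, 95% interval -0.85 to -0.45, limma adjusted p = 0.00014). Without both arrays numbered 3 the change was -0.64 (adjusted p = 0.00102). This was the largest fall among the tested probes of the 10 genes. The signal of the probe was low, with deposited signals of 117.6, 128.9, 120.1 and 110.1 in shZNF395, against 155.2, 181.1, 176.1 and 156.7 in shControl. Its change shrank to -0.505 without background correction and to -0.45 with normexp by maximum likelihood and an offset of 50. The size of the fall therefore depends on that correction, while the call held.

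BACE2, a related protease that can also cut APP within the amyloid beta stretch, gave a small fall by its brightest probe. ILMN_1669323 had 8.06, 8.11, 8.05 and 8.01 in shZNF395, against 8.19, 8.26, 8.37 and 8.34 in shControl. The groups were separate, and the change was -0.24 (SE 0.0635, adjusted p = 0.00882, limma). The second probe, ILMN_2326712, had 7.75, 7.49, 7.97 and 7.86 in shZNF395, against 7.97, 7.76, 7.48 and 7.99 in shControl, and did not pass (-0.03, SE 0.13, adjusted p = 0.849). Its sign turned under median scaling and cyclic loess.

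Among the gamma-secretase subunits, nicastrin and presenilin 2 were higher. NCSTN, the subunit that admits substrates to the complex, had 11.05, 11.03, 10.96 and 10.94 in shZNF395, against 10.50, 10.68, 10.76 and 10.57 in shControl. All shZNF395 arrays lay above the controls, and the change was 0.37 (SE 0.0711, adjusted p = 0.00127, limma).

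PSEN2 is a catalytic subunit of the complex, and both of its probes rose. ILMN_1714417 had 8.46, 8.59, 8.58 and 8.49 in shZNF395, against 8.12, 8.09, 7.97 and 8.04 in shControl, and changed by 0.48 (SE 0.0626, adjusted p = 9.02e-05, limma). ILMN_2404512 had 7.99, 8.09, 8.11 and 7.91 in shZNF395, against 7.61, 7.44, 7.62 and 7.63 in shControl, and changed by 0.45 (SE 0.0719, adjusted p = 0.000358, limma). The groups were separate for both probes, which were 1.39 and 1.36 times the control.

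PSENEN, the small subunit needed for the presenilin to be cut into its active form, went the other way. It had 7.14, 6.74, 7.10 and 7.25 in shZNF395, against 7.40, 7.36, 7.31 and 7.30 in shControl. The groups did not overlap, array 2 of shZNF395 was the lowest, and the change was -0.28 (SE 0.101, adjusted p = 0.0331, limma). This call ended under 9 of 21 alternatives, among them median scaling (adjusted p = 0.0693), cyclic loess (adjusted p = 0.0911) and the omission of shZNF395 array 2, which left -0.18 (adjusted p = 0.0548). It also ended without shControl array 1 (adjusted p = 0.0783), shControl array 2 (adjusted p = 0.0683) or shControl array 4 (adjusted p = 0.0523), and without both arrays numbered 3 (adjusted p = 0.0554).

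Of the alpha-secretases, ADAM9 was lower. It had 7.35, 7.09, 7.37 and 7.11 in shZNF395, against 7.88, 7.66, 7.61 and 7.79 in shControl. No shZNF395 array reached the lowest control, and the intensity was 70.5% of that of the control (change -0.51, SE 0.0898, adjusted p = 0.000714, limma).

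ADAM10, the main constitutive alpha-secretase of APP in neurons, did not pass by either probe. ILMN_1718946 had 8.16, 7.96, 8.22 and 8.40 in shZNF395, against 8.28, 8.24, 8.28 and 8.40 in shControl, with a change of -0.11 (95% interval -0.31 to 0.08, limma adjusted p = 0.303). ILMN_2148360 had 7.05, 7.08, 6.86 and 7.15 in shZNF395, against 7.10, 7.44, 7.21 and 6.93 in shControl, with a change of -0.14 (95% interval -0.37 to 0.10, limma adjusted p = 0.302). The groups overlapped for both, and the intervals leave room for a fall of a size similar to that of BACE2. Both probes were paired with their entry less securely than the others, as the processing describes.

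In a homogenate of many cells, fewer cells that make a transcript and less of it in each cell cannot be told apart, which holds for every gene here.

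Paralogues and subunits were compared with each other over 7 pairs, each gene by its brightest tested probe. The difference of 2 probes was taken on each array and compared between the groups by a two-sided exact permutation test over 70 arrangements, whose smallest p is 0.0286. For 4 pairs the groups were separate and the p was that smallest one, but after adjustment over the 7 pairs it was 0.05, and 0 pairs were under 0.05. The fall of PSENEN set against the rise of PSEN2 gave the widest gap, with a PSEN2 change minus PSENEN change of 0.76 (SE 0.137). The PSENEN change minus NCSTN change was -0.65 (SE 0.148). The BACE2 change minus BACE1 change was 0.41 (SE 0.0835), and ADAM10 minus ADAM9 was 0.39 (SE 0.126). With the other probe of the first gene, BACE2 minus BACE1 was 0.62 (exact permutation adjusted p = 0.1) and ADAM10 minus ADAM9 was 0.37 (exact permutation adjusted p = 0.25).

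PSEN2 and NCSTN were not separated in this test, with a difference in change of 0.11 (SE 0.0951, exact permutation adjusted p = 0.44), and 0.01 without both arrays numbered 3. For the APP family the outcome turned on the APP probe. With the brightest APP probe, APP minus APLP2 was -0.15 (SE 0.396) and APP minus APLP1 was 0.20 (SE 0.398), both with an exact permutation adjusted p of 0.714. Without both arrays numbered 3 they were 0.37 and 0.65, values with no test, so that the sign of APP minus APLP2 turned. It also turned without array 3 of shZNF395 alone (0.15) or array 3 of shControl alone (0.07), and APP minus APLP1 turned without array 1 of shControl (-0.05). With the other APLP2 probe, ILMN_2081465, and the brightest APP probe, APP minus APLP2 was -0.29 in all 8 arrays (exact permutation adjusted p = 0.24). When the main APP probe was read in all 8 arrays, the differences were 0.82 and 1.17, both with an exact permutation adjusted p of 0.0333. The unadjusted p was the same smallest one as for the separate pairs above. Its adjusted value is lower only because more pairs then reached that smallest p. It therefore does not set the APP pairs apart from those pairs, and APLP1 was close to the detection limit.

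**Figure D4:**
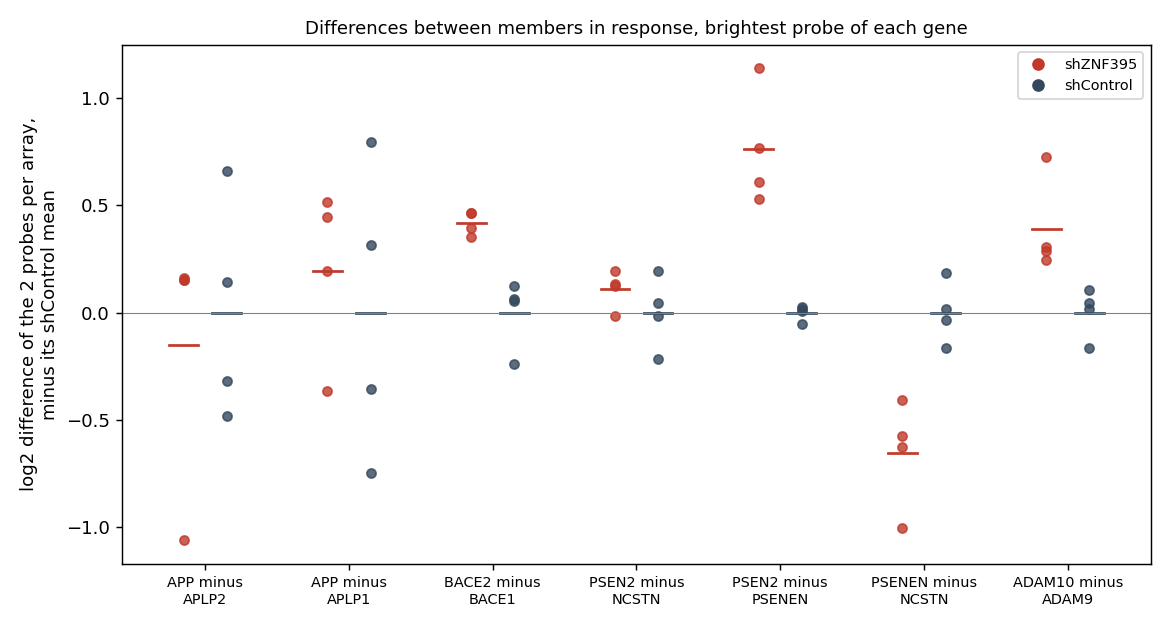
Log2 difference between the brightest probes of 2 genes on each array, minus its shControl mean, for 7 pairs; red points are shZNF395 arrays, left of the dark shControl arrays, and lines are group means. The groups are separate for BACE2 minus BACE1, PSEN2 minus PSENEN, PSENEN minus NCSTN and ADAM10 minus ADAM9, and APP minus APLP2 is spread by array 3.

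The genes around APP processing were read from lists by their brightest probe, against the background shares of 29.6% higher and 28.4% lower. Of the 11 other secretase subunits and alternative APP proteases, 5 were tested, of which 2 were higher and 1 lower. ADAM17 was on this list but had no named probe, so it was not read. APH1B and APH1A, alternative subunits of gamma-secretase, moved in opposite directions: APH1B averaged 7.32 ± 0.127 in shZNF395 and 6.54 ± 0.123 in shControl (SD, n = 4 each; change 0.78, limma adjusted p = 2.48e-05). APH1A averaged 9.53 ± 0.126 in shZNF395 and 10.07 ± 0.0992 in shControl (SD, n = 4 each; change -0.54, limma adjusted p = 0.000212), and its other probe also fell (-0.47, adjusted p = 0.000889). The lysosomal protease CTSB rose by 0.70 (SE 0.0622, adjusted p = 5.66e-06), while CASP6 did not pass by its brightest probe (0.11) and was higher by another (0.38, adjusted p = 0.0186).

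Of 19 tested secretase regulators, 9 were higher and 3 lower, with a median change of 0.22. RECK, a membrane-anchored inhibitor of metalloproteases that include ADAM10, rose by 1.07 (SE 0.13, adjusted p = 5.26e-05, limma), and by 0.56 for its other probe. The inactive rhomboid RHBDF1, which carries ADAM17 through the secretory pathway, rose by 0.85 (SE 0.0831, adjusted p = 1.11e-05), and ITM2C, a BRI family protein that binds APP, rose by 0.60 (adjusted p = 2.2e-05).

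TIMP3, a secreted inhibitor of metalloproteases that blocks ADAM17 and ADAM10, fell by 1.06 (SE 0.103, adjusted p = 1.08e-05, limma), whereas TIMP1 and TIMP2 rose by 0.32 and 0.47, and by 1.19 for the other TIMP2 probe. The proprotein convertase PCSK7, which can remove the ADAM prodomain, fell by 0.43 (adjusted p = 0.000163, limma). CRTAP, counted only because the list held it, fell by 0.44 (adjusted p = 0.000774, limma), and no role of it at the secretases was examined. The inhibitors on this list thus did not move as 1 group.

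Of 15 tested APP adaptors and binding proteins, 5 were higher and 1 lower, with a median change of 0.07. The endocytic adaptor DAB2 rose by 1.26 (SE 0.1, adjusted p = 2.49e-06, limma), TM2D1 by 0.71 (adjusted p = 5.73e-05) and the endocytic adaptor NUMB by 0.36 (adjusted p = 0.000882), with its other probe at 0.17. The ubiquitin ligase STUB1 fell by 0.31 (adjusted p = 0.0234), although its groups overlapped.

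Of 23 tested genes of APP trafficking, 10 were higher and 4 lower, with a median change of 0.02. LRP10, a membrane receptor of the LDL receptor family, rose by 1.13 (SE 0.0696, adjusted p = 3.91e-07, limma), and FLOT2, a lipid raft protein, by 0.61 (adjusted p = 3.12e-05). LRP1, an endocytic receptor that binds APP, was detected on all shZNF395 arrays but below detection on the 4 shControl arrays, and was at least 1.58-fold higher (mean 5.91 in shZNF395 and 4.95 in shControl). LRP1 met the detection condition only through the shZNF395 arrays, so nothing is read from its rise, and 9 of the 22 genes detected on all arrays were higher. FLOT1 fell by 0.38 (adjusted p = 0.0072), with overlapping groups, and SNX17 and CD2AP, which take part in endosomal sorting, fell by 0.37 (adjusted p = 0.000417) and 0.24 (adjusted p = 0.0175).

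The amyloid beta binding and clearance list had the highest share of rises among the 6 pathway lists, 7 of 8 tested genes with 0 lower, and a median change of 0.41. Among these, ECE1 was detected on 4 shZNF395 arrays and on 1 shControl array and so met the detection condition mainly through the group where it is high; of the 7 genes detected on all arrays, 6 were higher. PLAT, the tissue plasminogen activator, averaged 10.29 ± 0.0727 in shZNF395 and 8.73 ± 0.122 in shControl (SD, n = 4 each; change 1.56, limma adjusted p = 7.04e-08). ABCA1, a lipid exporter, rose by 1.39 (adjusted p = 2.41e-07), and CTSD, the lysosomal aspartic protease, by 1.13 (adjusted p = 1.98e-06). IDE, the insulin-degrading enzyme, did not pass (0.01, adjusted p = 0.866). Of the other membrane ADAM proteases, ADAM8 rose by 0.74 (adjusted p = 1.03e-05) and ADAM15 did not pass (-0.02, adjusted p = 0.798). No list was tested as a set, and 10 genes on the clearance list had no tested probe.

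**Figure D5:**
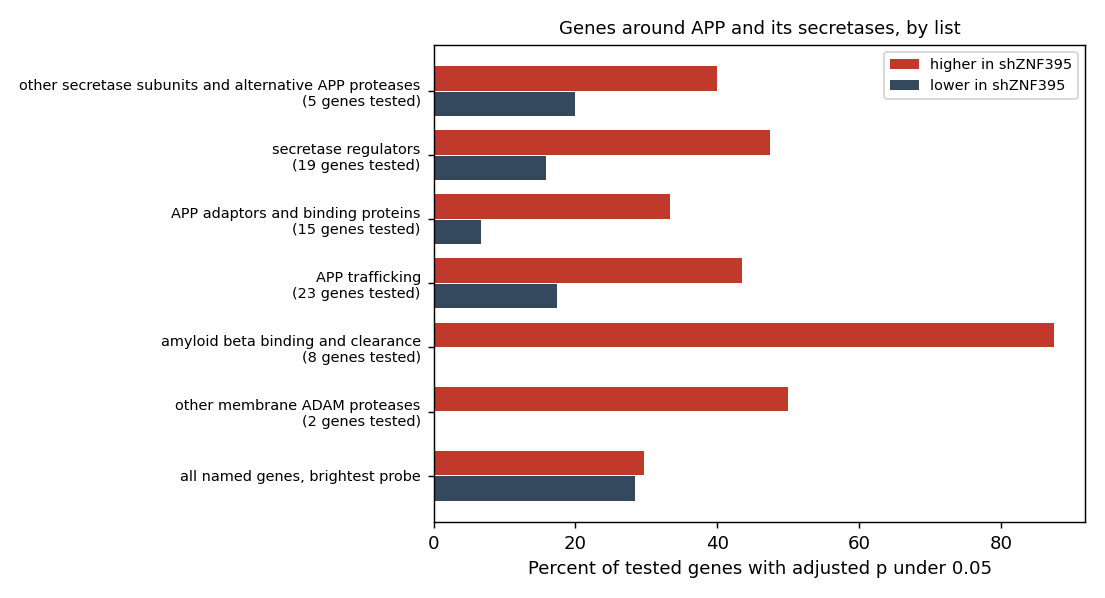
Percent of the tested genes on each list with an adjusted p under 0.05, higher in shZNF395 in red and lower in dark blue, beside the same shares over all 9215 named genes. The clearance list has 87.5% of its 8 genes higher, against 29.6% of all named genes; 1 gene of that list and 1 of the trafficking list were not detected on most shControl arrays.

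The probes most like the main APP probe were found by the root mean square difference over the 8 arrays of the log2 value minus the shControl mean, among 11576 named detected probes. They belonged to VAT1 (0.0749), CTSD (0.0786), PRDX5 (0.0867), ABCC3 (0.103) and ADAMTS9 (0.103). VAT1, a vesicle membrane protein, had 10.49, 10.77, 10.81 and 10.64 in shZNF395, against 9.44, 9.32, 9.67 and 9.46 in shControl. In both it and the main APP probe, arrays 2 and 3 were the highest of the shZNF395 group and array 3 the highest of the shControl group. Likeness over these arrays was the rule of choice, so this order and the rises of the chosen genes follow from it. PRDX5, a peroxiredoxin, changed by 1.20, the transporter ABCC3 by 1.06, and ADAMTS9, a secreted metalloprotease below detection on the 4 shControl arrays, was at least 1.84-fold higher. ADAMTS9 met the detection condition only through the shZNF395 arrays, so nothing is read from its rise.

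Markers of other cell types were read beside these results. Of 8 markers of MDA-MB-231 cells 7 were tested, and VIM averaged 14.18 ± 0.0629 in shZNF395 and 14.17 ± 0.0747 in shControl (SD, n = 4 each). CD44 did not pass by its brightest probe (0.06) and was lower by another (-0.28, limma adjusted p = 0.00986). KRT8 (0.90), ANXA1 (0.51) and EGFR (0.24) were higher, AXL (-0.25) and CAV1 (-0.27) were lower, and the named KRT18 probe was not detected. Of 8 neuron markers 2 were tested, SYT1 (0.58) and TUBB3 (0.29), both higher, with summed intensities of 1077 to 1175 in shZNF395 and 868.5 to 983.2 in shControl. MAP2, RBFOX3, SYP, NEFL and NEFM were not detected on 4 arrays. Of 7 leukocyte markers 2 were tested, CD14 (1.45, higher) and LAPTM5 (0.16, not called), with summed intensities of 943.2 to 1218 in shZNF395 and 696.7 to 833.4 in shControl, and PTPRC, TYROBP, ITGAM and CD3E were not detected. Of 5 fibroblast markers, COL1A1 alone was tested (0.29, higher; intensities of 336.7 to 350.7 in shZNF395 and 264.3 to 309.9 in shControl), while COL3A1, PDGFRB and DCN were not detected. The part of these markers in the results above was not tested.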

How the data were processed

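RNA of 1 cell line was measured on 8 arrays, 4 shZNF395 and 4 shControl, grouped by their titles. The deposited non-normalized table gives 47323 probes, each with an intensity and a detection p-value per array, per the file headers. Normalized intensity values of the same probes, on a linear scale, are in the deposited series matrix. The submitters' processing notes name lumi, with no role or version. A further table deposited by the authors lists 1 log2-like fold change per transcript entry, 39747 in all, and its scale was 1.04 per log2 unit at high signal and compressed at low signal.

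The probe and transcript names are not paired in the files, so each entry was tied to its probe by comparing values. The authors' change of each entry was matched to the difference of group means of each probe within 1e-09 after a transform fitted to the values, whose starting values rested on presumed pairs for APP and ZNF395. A single probe matched 83.4% of the entries, against 0.0478% after the values were shifted. Entries left over were matched to the mean of 2 probes within 6e-10. In a search mixed with shifted entries, 1595 real entries and 50 shifted ones were accepted, or 3.13%. APP ILMN_2404063 and ILMN_2404065, both APLP2 probes and both ADAM10 probes come from such entries. The rule for pairs was settled after seeing which of these entries it resolved. For ADAM10 it prefers pairs of detected probes, since a rival entry claims 1 of its probes. Symbols came from RefSeq's gene table (GRCh38.p14), and 11579 detected probes had 1 symbol.

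Raw intensities were corrected with limma 3.58.1 in R 4.3.3 by normexp, taking the negative controls' mean and variance from detection p-values, with an offset of 16, then quantile-normalized and put on the log2 scale. Probes with detection p under 0.01 on at least 4 of 8 arrays were fitted with lmFit and eBayes (two-sided, Benjamini-Hochberg over all of them, called under 0.05). Pairs of members were compared by exact permutation. For probes undetected throughout 1 group, the fold is given as at least the mean of the other group against the higher of its own value and the lowest detected signal. The fit was tested on simulated data.

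The members, lists and tests were chosen with earlier results of these data known. The genes named are the 10 members with every probe, ZNF395, up to 3 called genes with the smallest p in each direction of each list, and the 5 most like the main APP probe. Other list genes and markers named stand beside these as values. Some genes on the lists are counted but not reported by name here. Other settings tried were the background method, the scaling between arrays, the authors' normalized values, the detection limits, moderation, array weights, the probe chosen per gene, a replicate block and single arrays left out.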

Additional observations from a re-analysis of the deposited data

Results flagged for a closer look

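In 5 of 40 groups of 4 values examined, the gap between the highest or lowest array and its neighbour took an unusually large part of the group's range by Dixon's test. Chance flags about 1 in 20 independent groups; these 40 share the same 8 arrays, so no excess is read from the count. For APP ILMN_2404065, array 3 of shZNF395 was at 8.37 and the other shZNF395 arrays at 8.91 to 9.01. For APLP2 ILMN_1710482, array 3 of shZNF395 was at 10.28 and the others at 9.61 to 9.70. For PSEN2 ILMN_2404512, array 2 of shControl was at 7.44 and the others at 7.61 to 7.63. The number of detected probes was 17191 on array 3 of shZNF395, against 16834 to 16882 on the others, and 16476 on array 3 of shControl, against 17265 to 17406. The cause of these values was not tested.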

How the results depend on the processing

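Changes of the main APP probe (0.67 to 1.22), APLP2 ILMN_2081465, BACE1, BACE2 ILMN_1669323, NCSTN, both PSEN2 probes, ADAM9 and ZNF395 kept their direction and their call under all 21 alternatives each. Signs turned for APLP1 (0.006 under median scaling; -0.135 to 0.129 with single arrays left out) and for BACE2 ILMN_2326712 (0.011 under median scaling, 0.031 under cyclic loess; -0.139 to 0.062 with single arrays left out). Reading each gene by detection and interquartile range gave 4 genes higher in place of 2, and 3 lower in place of 4. With the main APP probe, APP minus APLP2 was 0.82 and APP minus APLP1 was 1.17, and with single arrays left out they ranged from -0.309 to 0.151 and from -0.053 to 0.463 by the brightest probe. The PSENEN call ended with the replicate number as a block (-0.28, adjusted p = 0.0524), which changed no other member call. Same-numbered arrays deviated from their group means with correlations of -0.1071, 0.005482, -0.4222 and -0.08654, so they did not move together. What the numbers stand for cannot be told from this, and the labels leave it open. The block moved the count of called probes to 8541 from 9512. Scaling moved the split of calls: 4356 probes were higher and 5156 lower, against 4505 and 4401 under median scaling and 4982 and 4334 under cyclic loess, with a median change over all probes of -0.05, -0.01 and 0.003. APP ILMN_1653283, BACE1 ILMN_2320349 and APLP1 had low signal. The cause of these shifts was not tested.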
